A study of Ovis aries with 6 samples.

Results

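TBP, HPRT1, SDHA, ACTB, GAPDH and YWHAZ are 6 genes in common use as internal references for gene expression, and their levels were examined in sheep ovary. They were taken by symbol from a table of 14480 genes, and each symbol was found on 1 row. The 6 libraries came from ovaries of Ovis aries in estrus. Hu sheep, a breed known for large litters, gave 3 of them, and Mongolian sheep, known for small litters, gave the other 3. The series title speaks of exosomes, whereas every sample is labelled as ovary tissue. The labels give no treatment, age or genotype for any sample and do not say whether the 3 libraries of a breed came from separate ewes, so p-values measure only the spread between these libraries. Levels are FPKM, fragments scaled by transcript length and by library total. Levels of different genes can therefore be compared within a library. Between libraries FPKM also depends on how the total is divided among genes, and the depth behind each value is unknown.

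A reference gene is used to correct for differences in the amount of input RNA, which requires that its own level stays steady across the samples compared. The 6 genes belong to unrelated processes. ACTB encodes cytoplasmic beta-actin, which builds the cell cortex and stress fibres, and GAPDH encodes the glycolytic enzyme glyceraldehyde-3-phosphate dehydrogenase. YWHAZ encodes the zeta member of the 14-3-3 family, adaptors that bind phosphorylated proteins. SDHA encodes the catalytic subunit of succinate dehydrogenase, an enzyme of the citric acid cycle and of the mitochondrial respiratory chain. HPRT1 encodes an enzyme that salvages purine bases, and TBP encodes the TATA-binding protein, the promoter-binding subunit of the transcription factor TFIID. The ovary mixes stroma, smooth muscle, vessels, follicles and, after ovulation, luteal tissue, and in such bulk samples fewer cells of a type and less RNA per cell cannot be told apart.

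The libraries themselves differed, and 2 Hu libraries stood apart. The 2 rows of largest sum over all 6 libraries held 53.3% of the FPKM sum in Hu 3 and 74.2% to 79.7% in the other 5. Hu 1 listed 6500 genes above 0, Hu 3 listed 13342, and the other 4 libraries lay between 7971 and 11463. Median-of-ratios size factors, a summary of each library's level over the 5046 genes above 0 everywhere, ranged from 0.666 in Hu 1 to 1.5997 in Hu 3. Ovarian stroma markers, 5 of 6 listed, summed to between 635 and 860 FPKM, and smooth muscle markers, 6 of 6 listed, to between 575 and 1387. The granulosa gene INHA lay between 15.6 and 99.1 FPKM, whereas CYP19A1, AMH and FOXL2 were not found by symbol. Of 7 oocyte markers 2 were found, GDF9 and ZP3, and their sum was 0 in 4 libraries and at most 0.888 FPKM. Leukocyte markers summed to at most 37.1 FPKM and endothelial markers to at most 20.1, and none of 3 blood markers was found by symbol.

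ACTB (ENSOARG00000003021) was the most abundant of the 6 genes. It stood at 251, 388 and 1051 FPKM in Hu 1, Hu 2 and Hu 3, and Mongolian 1, Mongolian 2 and Mongolian 3 held 339, 314 and 430 FPKM. Hu 1 and Hu 3 held the lowest and the highest value of all 6 libraries, and the Mongolian values lay between them. The Hu mean was 563 ± 428 FPKM and the Mongolian mean 361 ± 60.7 (SD, n = 3 per breed). ACTB resembles other actin genes in its coding sequence. The way reads shared between them were counted is not given in the sources used here, so the split of reads between actins is uncertain. The summed smooth muscle markers were likewise highest in Hu 3 and lowest in Hu 1. They came to 575, 699 and 1387 FPKM for Hu and to 890, 704 and 872 for Mongolian, in the order of the replicates used throughout. Of the 6 markers, 5 were highest in Hu 3 and 4 were lowest in Hu 1. MYH11 went another way, with 105, 110 and 176 FPKM for Hu against 224, 195 and 303 for Mongolian. The sum includes the actins ACTA2 and ACTG2, whose split of reads from ACTB is uncertain. The part of smooth muscle in the ACTB values was not tested.

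GAPDH (ENSOARG00000007894) measured 57.6, 81.3 and 129 FPKM for Hu, while Mongolian libraries measured 63.9, 67.4 and 182 FPKM. Its highest value was in Mongolian 3, not in Hu 3, and the other 2 Mongolian values lay within the Hu range. The Hu mean was 89.5 ± 36.6 FPKM and the Mongolian mean 104 ± 67.3 (SD, n = 3 per breed). In Mongolian 3 the summed luteal and steroidogenic markers (STAR, HSD3B1, CYP11A1, OXT and PTGFR) reached 379 FPKM, against 15.1 and 13.6 in the other 2 Mongolian libraries and 98.7, 21.4 and 156 in the Hu libraries. The sum was thus not low in Hu 1, where GAPDH was lowest. OXT, the oxytocin gene of luteal cells, held 305 FPKM of the sum in Mongolian 3. STAR and PTGFR were low there, at 1.75 and 2.23 FPKM, and highest in Hu 3, at 18.9 and 53.7. The part of these cells in the GAPDH values was not tested. Mammalian genomes carry many processed copies of GAPDH, so its count also depends on how shared reads were assigned.

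YWHAZ (ENSOARG00000018661) measured 14.1, 23.6 and 89.0 FPKM for Hu, while Mongolian libraries measured 32.5, 21.0 and 22.4 FPKM. As for ACTB, the 3 Mongolian values lay inside the Hu range, and Hu 3 was far above all other libraries. The Hu mean was 42.2 ± 40.8 FPKM and the Mongolian mean 25.3 ± 6.28 (SD, n = 3 per breed).

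SDHA (ENSOARG00000015619) measured 1.67, 4.20 and 11.3 FPKM for Hu, while Mongolian libraries measured 8.58, 8.99 and 14.8 FPKM. Hu 1 and Hu 2 lay below every Mongolian library, and Hu 3 lay inside the Mongolian range. The Hu mean was 5.73 ± 5.004 FPKM and the Mongolian mean 10.8 ± 3.45 (SD, n = 3 per breed).

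HPRT1 and TBP were scarce and were not listed above 0 in every library. HPRT1 (ENSOARG00000012055) measured 0, 8.67 and 3.72 FPKM for Hu, while Mongolian libraries measured 9.61, 2.33 and 0 FPKM. TBP (ENSOARG00000005142) measured 0, 4.03 and 4.17 FPKM for Hu and 2.79, 1.98 and 2.98 FPKM for Mongolian. Both were listed at 0 in Hu 1, and HPRT1 also in Mongolian 3. A gene at such levels was often listed at 0 in Hu 1. Of the 4874 tested genes with a mean within 2-fold of that of TBP, 45.6% were at 0 in Hu 1, and of the 4694 within 2-fold of HPRT1, 36.4% were. The 0 of HPRT1 in Mongolian 3 was less usual, shared by 6.43% of the genes of like level. A listed 0 can be a failed estimate, so no mean is given for either gene.

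**Figure D1:**
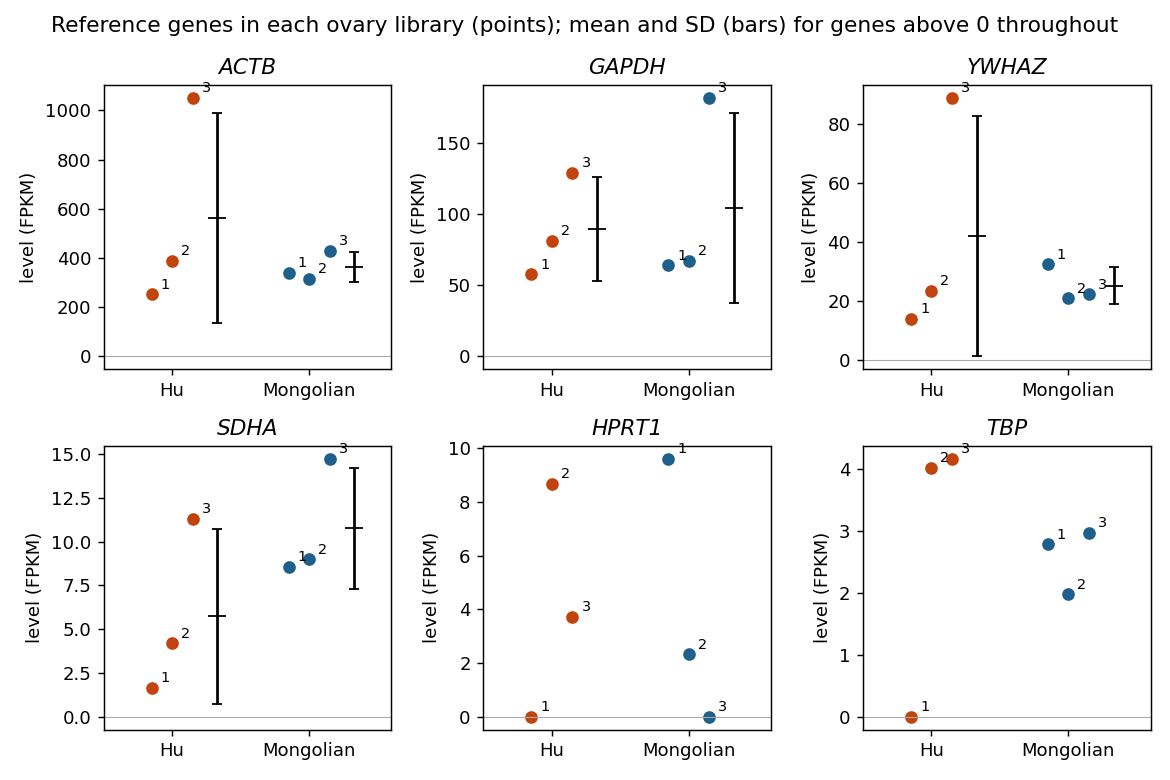
Level in FPKM (vertical axes, from 0) of the 6 reference genes in each ovary library; points are libraries, numbered by replicate, and the bars give the mean and SD of 3 libraries for the 4 genes above 0 throughout. Hu 1 is the lowest library in every panel, tied with Mongolian 3 for HPRT1, and Hu 3 stands far above the rest for ACTB (1051 FPKM) and YWHAZ (89.0 FPKM).

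By level per length the order was ACTB, GAPDH, YWHAZ, SDHA, then HPRT1 and TBP. The lowest ACTB value, 251 FPKM, lay above the highest GAPDH value, 182 FPKM. GAPDH and YWHAZ overlapped in range, as did YWHAZ and SDHA, but within each of the 6 libraries GAPDH was above YWHAZ and YWHAZ above SDHA. SDHA was below HPRT1 in Hu 2 and Mongolian 1 and above it in the other 4 libraries. HPRT1 and TBP had no constant order.

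The first comparison asked whether any of the 6 genes differed between breeds, since a reference that does so would carry its difference into every gene it corrects. None was called by limma with Benjamini-Hochberg adjustment over the 9971 genes tested, where 0% of all genes were called, and each of the 6 had an adjusted p of 0.998. Over all alternative settings the lowest limma adjusted p of any of them was 0.135, for SDHA with library weights, a fit that called 633 genes. In that fit the Hu side rested mostly on Hu 2, with a weight of 3.64 against 0.41 for Hu 1 and 0.25 for Hu 3. None of the 6 had an unadjusted limma p under 0.05, against 3.73% of all genes tested. In other settings SDHA did, without Hu 3 (limma, unadjusted p = 0.016) and with library weights (0.029), as did ACTB with the number of listed genes per library as a covariate (0.033). Of the 9971 genes tested, 1531 did so without Hu 3, 2745 with library weights and 515 with the covariate. The Hu and Mongolian ranges overlapped for each of the 6, whereas 7.92% of all genes tested showed no overlap, 1.88% with Hu above and 6.05% with Hu below. These tests do not show that the genes were equal, because their intervals were wide.

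SDHA differed by -1.05 on the log2(FPKM + 1) scale for Hu minus Mongolian, with a standard error of 0.68 and a 95% confidence interval from -2.49 to 0.40. The sign was negative in every setting tried, from -1.62 without Hu 3 to -0.52 without Hu 1. It was the largest of the 6 differences with all libraries and a pseudocount of 1, but not without Hu 1, where HPRT1 (1.04), YWHAZ (0.86) and ACTB (0.83) were larger. ACTB differed by 0.39 (95% confidence interval from -0.74 to 1.52) and YWHAZ by 0.32 (from -1.002 to 1.63). Both values rested on Hu 3, without which they turned to -0.20 and -0.42. GAPDH differed by -0.12 (from -1.24 to 0.99), and its sign turned under median-of-ratios scaling (0.043), under a common sum of all rows (0.20), and without Hu 1 (0.15) or Mongolian 3 (0.36). TBP differed by -0.26 (from -1.98 to 1.45) and turned after quantile normalization (0.12) and without Hu 1 (0.52). With its 0 in Hu 1 the value of TBP depended on the pseudocount, and was -1.13 at 0.1 and -2.21 at 0.01. HPRT1 differed by 0.12 (from -1.98 to 2.23) and turned without Hu 2 (-0.59), Hu 3 (-0.08) or Mongolian 3 (-0.73). The median over all genes tested was -0.28, so relative to it ACTB lay at 0.66, YWHAZ at 0.59, HPRT1 at 0.40, GAPDH at 0.15, TBP at 0.01 and SDHA at -0.77. For ACTB, YWHAZ and SDHA the sign of that relative value held with each library left out, between 0.46 and 0.82, 0.23 and 0.85, and -0.97 and -0.53. The median itself depended on the genes included. In Hu 1, Hu 2 and Hu 3, 39.0%, 25.9% and 0.70% of tested genes were at 0, against 3.72% to 8.43% in the Mongolian libraries. Over the 4969 tested genes above 0 in every library the median was -0.12, near the difference of GAPDH.

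Spread between libraries was then measured as the SD of log2(FPKM + 1) over the 6 libraries, a scale on which an SD of 1 means a typical factor of 2. GAPDH had the smallest SD of the 6 genes, 0.65, followed by ACTB at 0.72, TBP and YWHAZ both at 0.88, SDHA at 0.94 and HPRT1 at 1.51. Those of TBP and HPRT1, which hold values of 0, became 2.07 and 3.05 with a pseudocount of 0.1. The median over all genes tested was 0.80, and 2 of the 6 genes, GAPDH and ACTB, lay below it. A smaller SD than that of GAPDH was found in 32.0% of all genes tested, and smaller than that of HPRT1 in 93.7%. High genes vary less on this scale, so each gene was also set beside the tested genes whose mean lay within 2-fold of its own. There, 74.3% of 70 genes had a smaller SD than ACTB, 75.4% of 764 a smaller SD than YWHAZ, 58.3% of 218 a smaller SD than GAPDH and 58.9% of 3214 a smaller SD than SDHA. The shares were 92.1% for HPRT1 and 43.6% for TBP.

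**Figure D2:**
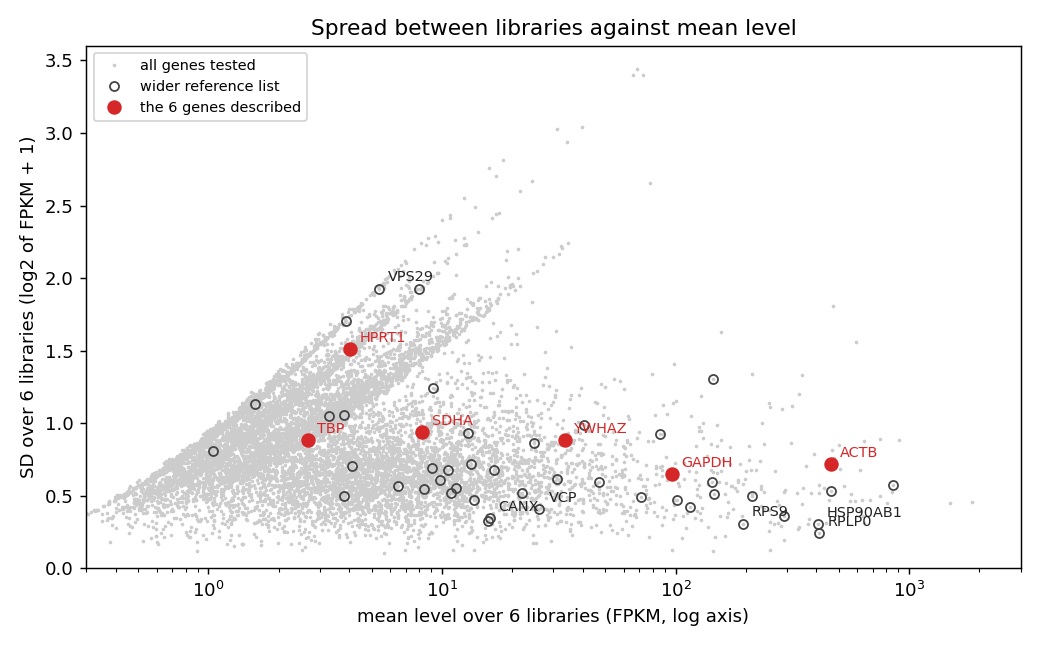
SD over the 6 libraries of log2(FPKM + 1) (vertical axis) against mean level in FPKM (horizontal log axis) for the 9971 genes tested (grey), the wider list of reference genes (open circles) and the 6 genes described (red). GAPDH at 0.65 is the lowest red point and HPRT1 at 1.51 the highest, while RPLP0 (0.24), HSP90AB1 (0.31) and RPS9 (0.31) lie well under all 6; the axes leave out the few genes of higher SD or level.

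The order by SD depended on single libraries. Without Hu 3 the SD of ACTB was 0.30 and that of YWHAZ 0.41, and without Hu 1 that of TBP was 0.33 and that of SDHA 0.59. Without Mongolian 3 the SD of GAPDH was 0.46. With Hu 1 and Hu 3 both left out, ACTB was the steadiest at 0.20, followed by YWHAZ at 0.27 and TBP at 0.31, while GAPDH was at 0.69. ACTB was also the steadiest with median-of-ratios scaling (0.40), with quantile normalization (0.44) and with a common sum of genes with a symbol (0.37). HPRT1 had the largest SD in each of the 12 alternatives.

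Within breeds, 4 of the 6 genes varied more in Hu than in Mongolian, as did 74.7% of all genes tested. The coefficient of variation of ACTB was 76.0% in Hu and 16.8% in Mongolian, that of YWHAZ 96.6% and 24.8%, and that of SDHA 87.3% and 32.1%. GAPDH showed the opposite order, with 40.9% in Hu and 64.4% in Mongolian. HPRT1 also had a slightly larger SD of log2(FPKM + 1) in Mongolian (1.70) than in Hu (1.67). The difference in spread between breeds was not tested.

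All 6 genes were lowest in Hu 1, where 60.7% of the tested genes were lowest or tied for lowest. In Hu 1 the median gene lay 0.74 below its own mean over the 6 libraries on the log2(FPKM + 1) scale, and ACTB and GAPDH deviated by nearly as much, -0.70 and -0.61. That median includes many values of 0, since 39.0% of tested genes were at 0 in Hu 1. The log2 size factor of Hu 1, over genes above 0 everywhere, was -0.59. SDHA deviated by -1.58, further than the median gene. TBP and HPRT1 were listed at 0 there, so the size of their deviation is set by the pseudocount. In Hu 3 the median gene lay 0.64 above its mean, SDHA, TBP and GAPDH were within 0.1 of that at 0.63, 0.67 and 0.54, and ACTB and YWHAZ exceeded it at 1.36 and 1.64. In Mongolian 3 GAPDH and SDHA lay 1.03 and 0.98 above their means, against 0.26 for the median gene. Each of the 6 genes departed from the median gene by more than 0.5 in at least 1 library.

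**Figure D3:**
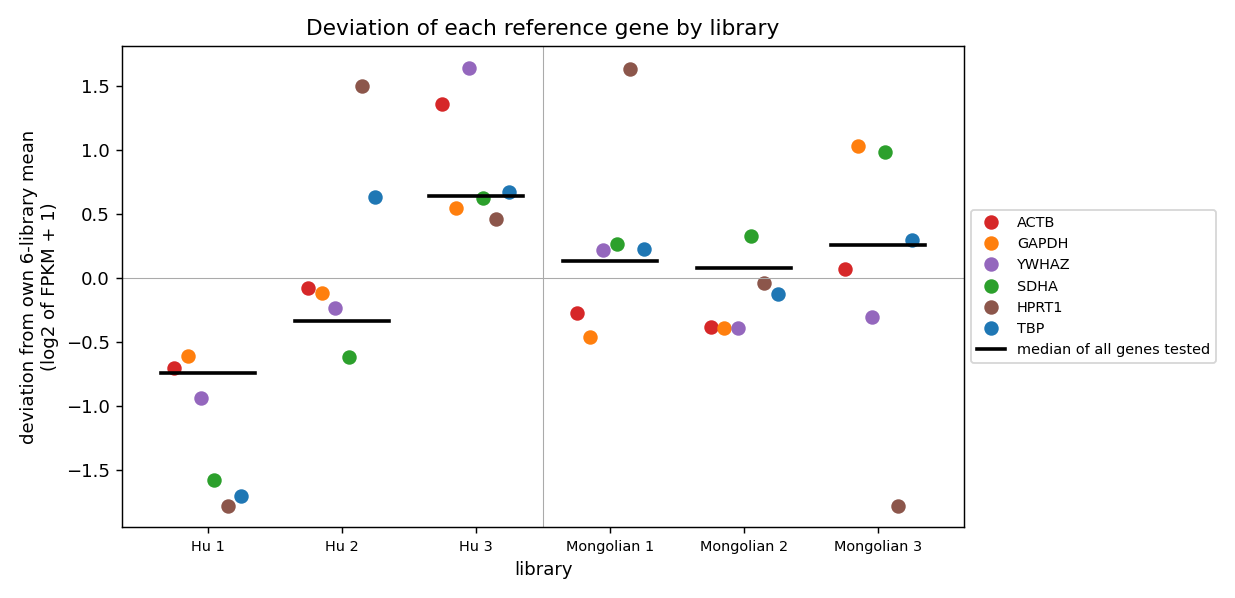
Deviation of each reference gene from its own mean over the 6 libraries, in log2 of FPKM + 1 (vertical axis), by library (horizontal axis); the black bars mark the median of all genes tested, from -0.74 in Hu 1 to 0.64 in Hu 3. ACTB and YWHAZ lie above the bar in Hu 3, GAPDH and SDHA above it in Mongolian 3, and HPRT1 lies far from it in 4 libraries.

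Ratios of 2 genes within a library do not depend on the scaling between libraries when both are well above the pseudocount. TBP and HPRT1, which hold values of 0, do not meet that condition, and SDHA, at 1.67 FPKM in Hu 1, meets it poorly. The ratios of pairs with these genes thus depend in part on the pseudocount. The 15 pairs were compared by the SD of their log2 ratio. The smallest SD belonged to ACTB and YWHAZ, 0.33. The log2 ratio of ACTB to YWHAZ was 4.06, 3.98 and 3.55 for Hu and 3.34, 3.84 and 4.20 for Mongolian, so the 2 genes kept close to each other although each varied widely. This SD stayed between 0.25 and 0.36 with each library left out and was 0.49 after quantile normalization. The pair of ACTB and GAPDH followed at 0.57, and at 0.36 without Mongolian 3, where their log2 ratio was 1.23 against 2.10 to 3.01 in the other 5 libraries. The 5 pairs with HPRT1 had the largest SDs, from 1.19 to 1.81. TBP and SDHA had an SD of 0.67, which was 0.31 without Hu 2, and TBP and HPRT1 one of 1.19, which was 0.70 without Mongolian 3. TBP and ACTB had one of 0.68, which was 0.23 without Hu 1 and Hu 3.

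The mean SD over a gene's 5 pairs, known as its M value, was 0.78 for ACTB, 0.81 for TBP, 0.83 for YWHAZ, 0.93 for GAPDH, 0.94 for SDHA and 1.51 for HPRT1. Every M value includes pairs with TBP or HPRT1, so all depend in part on the pseudocount. ACTB did not come first in every setting: TBP did without Hu 2 (0.72) and YWHAZ without Hu 3 (0.77). With a pseudocount of 0.1 the M value of TBP was 1.79, larger than those of all but HPRT1. When the gene of largest M was removed at each step, HPRT1 left first, then SDHA, GAPDH and TBP, and ACTB and YWHAZ remained. Such a ranking favours genes that move together, and ACTB and YWHAZ both peaked in Hu 3. In the order by SD, GAPDH came first and YWHAZ after TBP.

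Of the 15 pairs, 2 had log2 ratios that did not overlap between breeds. SDHA relative to ACTB measured -6.56, -6.23 and -6.42 for Hu, against -5.15, -4.98 and -4.77 for Mongolian. SDHA relative to YWHAZ measured -2.498, -2.24 and -2.87 for Hu, against -1.81, -1.14 and -0.57 for Mongolian. In both pairs every Hu library was lower, and each gave the smallest p that 3 against 3 libraries allow (two-sided exact permutation test, p = 0.1, unadjusted for the 15 pairs). Among all genes tested, the ratio to ACTB left such a gap in 22.8%, with Hu lower in 22.5%, and the ratio to YWHAZ in 13.9%, with Hu lower in 13.6%. The ratio to SDHA did so in 23.8%, with Hu lower in 0.652%, the ratio to GAPDH in 7.18%, with Hu lower in 5.77%, the ratio to TBP in 5.08%, with Hu lower in 2.99%, and the ratio to HPRT1 in 0.241%, with Hu lower in 0.201%. For the other 13 pairs the ratios overlapped.

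**Figure D4:**
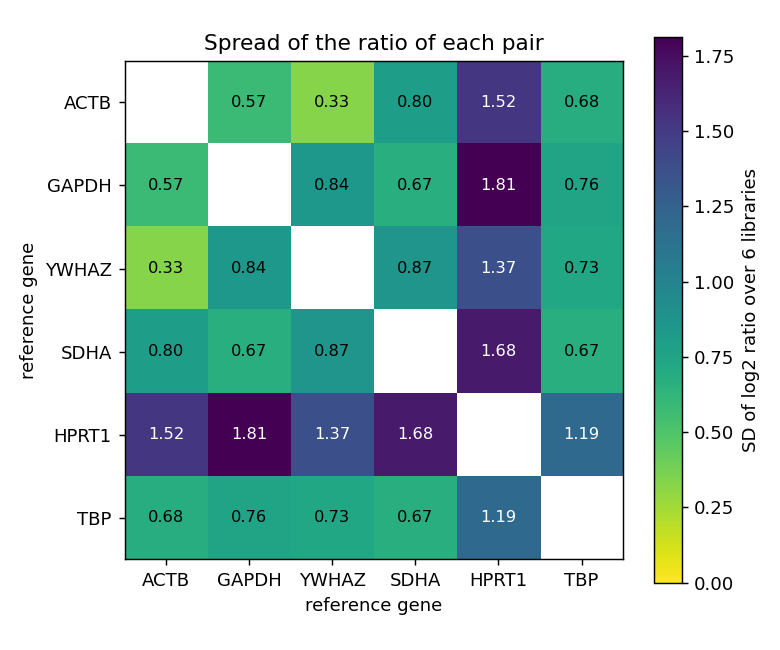
SD over the 6 libraries of the log2 ratio of each pair of reference genes, printed in each cell and shown by colour. The pair of ACTB and YWHAZ has the smallest value (0.33), and the row and column of HPRT1 hold the largest, up to 1.81 with GAPDH.

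Each gene was then set beside other genes of its own family or pathway. The comparison with all genes was not matched for level. Of all genes tested, 50.2% were at 0 in at least 1 library. The shares were 0% for the 14-3-3 genes and 13.3% for the glycolysis genes tested. Among 14-3-3 genes, 4 others were tested, and none was called. The ratio of YWHAZ to them had a median SD of 0.39, against 0.89 over all genes, and 4 of 4 lay below that value. YWHAQ measured 29.4, 59.7 and 150 FPKM for Hu, against 50.1, 49.5 and 54.3 for Mongolian, with Hu 3 highest as for YWHAZ. YWHAE likewise measured 32.7, 62.9 and 154 for Hu, against 50.1, 46.5 and 39.5 for Mongolian. YWHAB measured 3.46, 11.3 and 24.4 for Hu and lay between 8.20 and 12.2 for Mongolian. YWHAH was lowest in Hu 2, at 19.2, and between 40.9 and 86.4 elsewhere. SFN reached 0.52 FPKM at most and was not tested.

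Glycolysis genes had small ratio SDs with GAPDH. Of 20 genes in the list 19 were listed and 15 tested, and none was called. The SD of the log2 ratio of GAPDH to the other 14 had a median of 0.505, against 0.83 over all genes, with 13 of 14 below that value. Mongolian 3 was the highest library for 10 of the 15 glycolysis genes and for 26.6% of all genes tested. ENO1, enolase, stood at 117 FPKM there and between 32.5 and 63.5 in the other 5 libraries. PKM, pyruvate kinase, stood at 70.8 there and between 14.95 and 53.5 elsewhere, and LDHA, lactate dehydrogenase A, at 14.99 and between 4.51 and 9.79. LDHB, lactate dehydrogenase B, was highest in Hu 3 instead, at 103.5 FPKM, with 92.6 in Mongolian 3 and between 19.1 and 61.8 in the other 4. The ratio of GAPDH to LDHA had the smallest SD of the 14, 0.22.

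ACTB kept its closest ratio with ACTG1, the other cytoplasmic actin, with an SD of 0.29 against a median of 0.81 over all genes. ACTG1 measured 297, 379 and 780 FPKM for Hu, against 433, 381 and 462 for Mongolian, with an SD of 0.47, smaller than the 0.72 of ACTB. The smooth muscle actins ACTG2 and ACTA2 were next, with ratio SDs of 0.32 and 0.39. Over the 15 other tested genes of actin and its binding proteins the median was 0.79, near that of all genes, and 10 of 15 lay below it. CFL1, cofilin, varied least in the list, between 67.0 and 135 FPKM with an SD of 0.43. Hu 3 was highest for 15 of the 16 tested genes of the list, against 45.0% of all genes, and none was called.

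SDHA, TBP and HPRT1 had ratio SDs to their pathways near or above those to all genes. The ratio of SDHA to 19 other citric acid cycle and succinate dehydrogenase genes had a median SD of 0.85, as over all genes, with 10 of 19 below it. Its closest partners were SUCLG2 and MDH2, with ratio SDs of 0.38 and 0.39, whereas SDHC, a membrane anchor of the same enzyme, had one of 0.99. SDHC measured 0, 1.90 and 9.85 FPKM for Hu, against 8.86, 3.29 and 1.41 for Mongolian. The ratio of TBP to 12 other TFIID genes had a median SD of 0.92, against 0.91 over all genes, and TAF6 was closest at 0.52. TAF7 and TAF3 were the most abundant TFIID genes, between 13.9 and 39.5 FPKM and between 7.40 and 16.9, both above TBP in every library. The ratio of HPRT1 to 4 other purine salvage genes had a median SD of 1.98, above the 1.61 of all genes. APRT, which salvages adenine, measured 12.6, 0 and 4.98 FPKM for Hu, against 1.59, 0 and 16.1 for Mongolian. It was highest in Hu 1 and Mongolian 3, the libraries with HPRT1 at 0. None of the tested genes of these 3 lists was called.

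A wider list of 50 genes used elsewhere as references showed how the 6 compare. Of these, 41 were found by symbol on 43 rows, all tested, and none was called by limma. Of the 43 rows, 25 had a smaller SD than GAPDH, and their median SD was 0.59 against 0.80 over all genes. RPLP0, a ribosomal stalk protein, measured 324, 429 and 495 FPKM for Hu, against 447, 433 and 338 for Mongolian, an SD of 0.24. HSP90AB1, a constitutive chaperone, measured 321, 345 and 578 for Hu, against 406, 359 and 435 for Mongolian, an SD of 0.31. RPS9, a small ribosomal subunit protein, lay between 136 and 239 FPKM, with an SD of 0.31. CASC3, a core protein of the exon junction complex, lay between 11.01 and 21.5 FPKM, with an SD of 0.33. Unlike HPRT1 and TBP at lower levels, these 4 genes were above 0 in every library.

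The wider list was not uniformly steady. EEF1A1, translation elongation factor 1 alpha, was on 3 rows, which may share reads. The most abundant row lay between 428 and 1357 FPKM with an SD of 0.58, and another between 34.4 and 352 with an SD of 1.30. VPS29, UBE2D2 and PSMB2 had SDs of 1.93, 1.92 and 1.70, above that of HPRT1, and all 3 were listed at 0 in Hu 1 and Hu 2.

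The scaling between libraries changed which gene was steadiest. The smallest SD in the wider list belonged to VCP (0.10) with median-of-ratios scaling, to RPS18 (0.15) with quantile normalization, to CASC3 (0.22) with a common sum of all rows and to PPIB (0.16) with a common sum of genes with a symbol. The steadiest of the 6 reference genes, ACTB or GAPDH, was at 0.40, 0.44, 0.54 and 0.37 in those settings, and 16, 20, 21 and 16 of the 43 rows lay below it. The share of all genes below it in those settings is not given here. In all 5 scalings, the deposited values included, 14 rows had a smaller SD than the steadiest of the 6. Among them were RPLP0, HSP90AB1, RPS9, CASC3, CANX, VCP, EEF2, PPIB, SNRPD3, RPL4, RPS18, TUBB and the most abundant EEF1A1 row. These genes were picked from the list by the values given here, so their SDs are a description of these libraries.

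Each of the 6 genes was next used as a reference, by subtracting its log2(FPKM + 1) from that of every other gene within each library. FPKM is already scaled by library total, so a change in spread after division does not measure how well a gene tracks input. The spreads are given as a description. As deposited, the median SD of all genes tested was 0.80. It was 0.81 after division by ACTB, 0.83 by GAPDH, 0.85 by SDHA, 0.89 by YWHAZ, 0.91 by TBP and 1.61 by HPRT1, so no single gene of the 6 lowered it. Division by ACTB lowered the SD of 52.3% of genes and division by HPRT1 that of 5.58%. Without Hu 3, division by ACTB gave a median of 0.72 and by YWHAZ 0.73, against 0.76 undivided. Without Mongolian 3, division by GAPDH gave 0.71 against 0.79 undivided.

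Averages of several references gave a lower spread. The mean log2 level of SDHA, ACTB, GAPDH and YWHAZ gave a median SD of 0.73 and lowered that of 61.6% of genes, and the mean of all 6 gave 0.77. The mean of ACTB and GAPDH gave 0.77 as well. With the mean of 4 genes, the value with each library left out lay between 0.69 and 0.755, against 0.70 to 0.85 undivided. For comparison, median-of-ratios scaling gave 0.72, and division by HSP90AB1 or RPS9 alone, both chosen for their small SD, gave 0.70. Division by RPLP0, the gene of smallest SD in the wider list, gave 0.76.

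The direction of the comparison between breeds differed with the reference. Division subtracts the same profile from every gene, so it shifts each breed difference by that of the reference, with its sign reversed. The median log2 difference of all genes moved from -0.28 as deposited to -0.66 after ACTB and to 0.77 after SDHA. The counts after division thus follow in part from the reference's own profile and are not independent results for the genes counted. As deposited, 187 genes had every Hu library above every Mongolian library, and 603 had every Hu library below. After division by ACTB these counts were 39 above and 2239 below, and after division by SDHA they were 2310 above and 65 below. Division by YWHAZ gave 32 above and 1356 below, and division by GAPDH 141 above and 575 below, close to the deposited values. Division by TBP gave 208 above and 298 below, and division by HPRT1 gave 4 and 20.

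**Figure D5:**
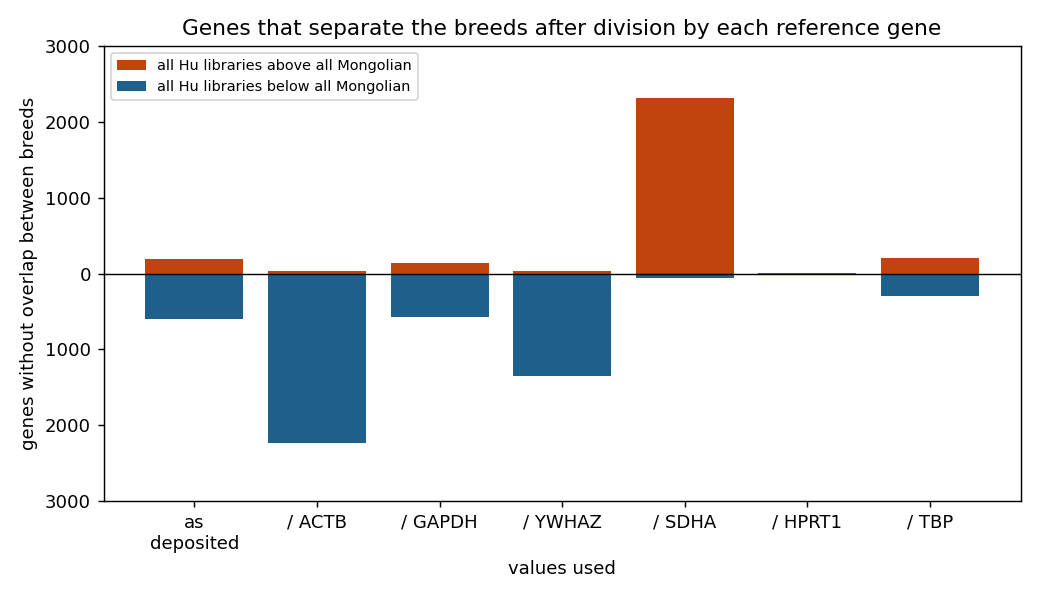
Number of genes whose Hu and Mongolian libraries did not overlap, with the values as deposited and after division by each reference gene; bars above 0 count genes with all Hu libraries higher, bars below 0 genes with all Hu libraries lower. Division by SDHA gives 2310 higher and 65 lower, and division by ACTB 39 higher and 2239 lower. Division shifts all genes of a library by the same amount, so the counts depend on the reference's own profile.

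In limma fits after division by ACTB, 1471 genes had an unadjusted p under 0.05, of which 2.65% were higher in Hu, and after division by SDHA 1620, of which 98.0% were higher. With each library left out the median log2 difference of all genes stayed negative after division by ACTB, between -0.82 and -0.46, and positive after division by SDHA, between 0.53 and 0.97. The count after division by SDHA was 704 without Mongolian 3 and 1065 without Hu 1. After division by YWHAZ 849 genes had an unadjusted p under 0.05, which became 1526 without Hu 1, 522 without Mongolian 2 and 370 without Mongolian 3. After division by GAPDH 90 were higher and 213 lower in Hu, a balance that rested on single libraries: 131 higher and 85 lower without Mongolian 1, 240 and 135 without Mongolian 2, and 31 and 945 without Mongolian 3. After division by TBP 118 were higher and 127 lower, which became 65 and 754 without Hu 1 and 567 and 61 without Hu 2. Few genes passed limma with Benjamini-Hochberg adjustment: 0 after division by ACTB or GAPDH, 15 by YWHAZ, 5 by SDHA, 3 by TBP and 1 by HPRT1. The 5 after SDHA were POLR3K, RASSF3, SRP14 and the unnamed ENSOARG00000003488 and ENSOARG00000006256, all higher in Hu. POLR3K and ENSOARG00000006256 were also among the 3 after TBP, and the assembled gene Ovis_arie_newGene_15404 was called after TBP, HPRT1 and YWHAZ. The last was listed at 0 in Hu 2, Mongolian 1 and Mongolian 3. POLR3K and ENSOARG00000006256 were listed at 0 in all 3 Mongolian libraries, and ENSOARG00000003488 in Mongolian 1 and Mongolian 2. These counts rested on single libraries. After division by SDHA with 1 library left out the calls numbered from 0 without Hu 1 to 141 without Mongolian 2, and after division by YWHAZ from 4 without Hu 2 to 60 without Hu 1. They ranged from 0 to 5 by TBP, the 0 without Hu 1, from 0 to 6 by GAPDH and from 0 to 4 by ACTB, both highest without Hu 3, and from 0 to 1 by HPRT1.

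The genes whose profile over the 6 libraries was most like that of each reference were found by Pearson correlation of log2(FPKM + 1) among tested genes with a symbol whose mean reached 5 FPKM, 2728 or 2729 per reference. With 6 libraries that share the same differences in level, high values arise easily, and they are given as a description. USP47 and TM9SF2 were closest to YWHAZ (r = 0.998 and 0.99), QSER1 and SF3A3 to ACTB (0.99 each), and NOP56 and DNM2 to GAPDH (0.998 and 0.98). ACTR1B and FOXO4 were closest to SDHA (0.998 and 0.99), and ACTR1B was listed at 0 in Hu 1. S100A16 and HMGN3 were closest to TBP, both listed at 0 in Hu 1 as TBP was. KRTCAP2 and CFAP20 were closest to HPRT1 (0.975 and 0.96). KRTCAP2 was listed at 0 in Hu 1 and Mongolian 3, as HPRT1 was, and CFAP20 at 0 in Hu 1 and 0.41 FPKM in Mongolian 3. Correlations above 0.95 were found with 71 genes for SDHA, 70 for TBP, 51 for YWHAZ, 37 for ACTB, 12 for GAPDH and 4 for HPRT1. Among the 6 themselves, r was 0.94 for ACTB and YWHAZ, between 0.43 and 0.73 for the other pairs without HPRT1, and -0.29 for HPRT1 and GAPDH.

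The smallest spread of all was found in other genes. Among 2225 genes that had a symbol, reached a mean of 5 FPKM and were above 0 in every library, the 8 of smallest SD were COL4A6, COL3A1, COL1A2, RNF214, SERPING1, NASP, IGF2R and FCGRT, with SDs from 0.10 to 0.18. GAPDH ranked 1120, ACTB 1345, YWHAZ 1795 and SDHA 1884 in the same set. COL3A1, a fibrillar collagen of stroma, measured 141, 153 and 131 FPKM for Hu, against 165, 140 and 137 for Mongolian. COL4A6, a basement membrane collagen, lay between 5.11 and 6.47 FPKM. The 8 did not keep these ranks under another scaling: after median-of-ratios scaling they ranked from 276 to 1163. Division of all genes by COL3A1 gave a median SD of 0.83, no lower than the 0.80 without division, although COL3A1 itself had an SD of 0.12.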

How the data were processed

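Polyadenylated RNA of 6 ovary samples was collected with a column kit and made into libraries with a SMARTer kit, per the labels' protocols. The authors deposited FPKM values per gene, with the aligner, counting tool, genome build, filters and depth not given in the sources used here. Groups and replicate numbers came from the sample titles, and columns were matched through the sample descriptions. A second deposited table, of lncRNAs, was not used. Because the values are not counts, they were tested on log2(FPKM + 1) with limma 3.58.1 in R 4.3.3 (trend, breed as the only factor, two-sided, Benjamini-Hochberg adjustment, call at an adjusted p under 0.05) over the 9971 genes that reached 0.5 FPKM in 3 or more libraries. The script was tested on simulated data. SDs, ratios and M values are descriptions without a test.

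The 6 genes, the lists and the tests were chosen with earlier results of these data known. Named genes are the 6 references, 2 most like each, the 8 steadiest and, per list, all members of lists of up to 8 or up to 4 of smallest SD and up to 4 of largest mean. Genes given as closest partners (TAF6), SDHC, those among the 14 steadier rows, VPS29, UBE2D2, PSMB2 and genes called after division were named after their values were seen. Division by a reference was added after the data were seen. No sequence of these genes was used here.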

Additional observations from a re-analysis of the deposited data

How the results depend on the processing

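The limma count of 0 genes held under every setting of pseudocount, filter and scaling tried, where 126 to 694 genes had an unadjusted p under 0.05. The count was 633 genes with array weights, 0 to 4 with 1 library left out and 6 without Hu 1 and Hu 3 together, an alternative chosen after seeing the data, as were the covariate and the divisions given here. The 2 genes without Hu 2 were ENSOARG00000007930 and Ovis_arie_newGene_15404, and the 4 without Hu 3 were ENSOARG00000019405, CNBP, HSPB1 and MXRA7. After division by a reference the counts were 3 (TBP), 1 (HPRT1), 5 (SDHA) and 15 (YWHAZ). Of genes with an unadjusted limma p under 0.05, 24.5% were higher in Hu as deposited, 28.7% with median-of-ratios scaling, 20.5% with a common sum of genes with a symbol and 52.0% both with quantile normalization and with a common sum of all rows. TBP and HPRT1 did not pass the filter at 5 FPKM. The replicate number as a block gave 0 genes and changed no call. The correlations of deviations between same-numbered libraries were -0.01, -0.03 and -0.18, and those between other pairs lay from -0.11 to 0.16. With 3 libraries per breed, these values cannot decide whether a shared number marks a pairing.

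The log2 difference of GAPDH turned to 0.043 with median-of-ratios scaling, 0.20 with a common sum of all rows, 0.041 with array weights and 0.10 with a covariate for the genes listed per library. That of TBP turned to 0.12 with quantile normalization, 0.30 with array weights, 0.12 with the covariate and 0.50 without Hu 1 and Hu 3, and that of YWHAZ to -0.10 with array weights and -0.073 without both libraries. With 1 library left out the differences ranged from -0.67 to 0.52 (TBP), -0.73 to 1.04 (HPRT1), -1.62 to -0.52 (SDHA), -0.20 to 0.83 (ACTB), -0.43 to 0.36 (GAPDH) and -0.42 to 0.86 (YWHAZ), turning for TBP without Hu 1 (0.52), for HPRT1 without Hu 2 (-0.59), Hu 3 (-0.08) and Mongolian 3 (-0.73), for GAPDH without Hu 1 (0.15) and Mongolian 3 (0.36), and for ACTB (-0.20) and YWHAZ (-0.42) without Hu 3. The cause was not tested.

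With a pseudocount of 0.1 the SD was 2.07 for TBP and 3.05 for HPRT1, and the M values were 1.79 (TBP), 2.86 (HPRT1), 1.42 (SDHA), 1.31 (ACTB), 1.48 (GAPDH) and 1.31 (YWHAZ), since values of 0 then lie further from the rest. The SD of SDHA was 0.55 after quantile normalization, and without Hu 1 and Hu 3 the SDs of TBP, ACTB and YWHAZ were 0.31, 0.20 and 0.27. With 1 library left out the SD ranged from 0.33 to 0.98 (TBP), 1.38 to 1.69 (HPRT1), 0.59 to 1.04 (SDHA), 0.30 to 0.80 (ACTB), 0.46 to 0.72 (GAPDH) and 0.41 to 0.98 (YWHAZ). The depth is unknown, so how far counting error adds to the spread of TBP and HPRT1 was not tested.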
